A study of Mus musculus with 6 samples.

Results

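Early round spermatids, the youngest haploid cells of the testis, were selected from single-cell transcriptomes of mouse testis by their own counts. A barcode was kept when it held at least 10000 unique molecular identifiers (UMIs, each standing for 1 captured mRNA molecule), when the protamine and transition protein genes Prm1, Prm2, Tnp1 and Tnp2 together made up under 1% of its UMIs, and when Ssxb1 and Ssxb2 together had 5 UMIs or more. These limits left 794 of 48939 barcodes, 1.62% of the whole series and 9.26% of its 8576 barcodes with 10000 UMIs or more. The testes came from wild-type C57BL/6 mice (C57BL/6N in the study's methods) that were 8 weeks old and had been fed for 2 weeks on a diet high (HFD) or low (LFD) in fat, with 3 libraries per diet, and no transgene or other treatment separated the groups. The study's methods count 3 mice per diet, but no label ties a library to an animal, so p-values measure the spread between these libraries. Each library is a mixture of all testis cells, and spermatids were recognised here by transcripts alone. The labels and the names of the deposited files gave opposite diets for all 6 libraries, and the barcode counts per library that the study lists match the file names. The libraries are called by their labels throughout, and the sign of every diet difference would turn if the file names were right.

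Round spermatids are the haploid products of the second meiotic division. In the days after that division they build the acrosome, an enzyme-filled vesicle that later helps the sperm through the coat of the egg, they begin the flagellum, and they store many mRNAs in protein-bound form for translation after transcription has stopped. The X and Y chromosomes are silenced in pachytene spermatocytes, in a compartment called the sex body, and part of their genes become active again in spermatids. The nucleus condenses later, when transition proteins and then protamines replace the histones, which is why a low protamine share marks a young spermatid. The Ssx genes form a multicopy X-linked family, related to the human cancer-testis antigens SSX, whose proteins act as transcriptional repressors.

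Ssxb1 and Ssxb2 are near-identical neighbours on the X chromosome (GRCm38.p6), which bears on how far their UMIs can be told apart. Ssxb1 lies at chrX:8413305-8422157 on the plus strand and Ssxb2 at chrX:8454345-8461726 on the minus strand. The 200 bases before the annotated start of each gene are shown from 5′ to 3′, with capitals at the 12 positions at which the pair differ. They occupy chrX:8413105-8413304 (plus strand) and chrX:8461727-8461926 (minus strand) and are 94.0% identical.
Ssxb1: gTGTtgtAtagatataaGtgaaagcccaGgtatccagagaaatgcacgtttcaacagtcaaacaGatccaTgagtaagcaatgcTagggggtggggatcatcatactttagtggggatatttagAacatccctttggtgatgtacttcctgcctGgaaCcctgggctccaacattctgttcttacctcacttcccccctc
Ssxb2: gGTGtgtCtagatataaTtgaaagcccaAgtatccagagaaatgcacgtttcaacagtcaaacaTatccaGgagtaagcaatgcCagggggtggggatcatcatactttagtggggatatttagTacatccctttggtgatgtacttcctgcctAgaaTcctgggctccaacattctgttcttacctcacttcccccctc
The annotated transcripts of Ssxb1 and Ssxb2 were 96.3% identical over 749 aligned bases and 98.0% identical over the last 100 bases, the end that 3′ sequencing reads. The other Ssxb transcripts were 95.9% to 97.1% identical to Ssxb1, and Ssxa1 was 69.2% identical. Reads that fit several copies equally well are dropped by the counting, so the level of each copy is uncertain.

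The gated barcodes were spread over all 6 libraries. The libraries labelled HFD gave 198, 115 and 138 of them, and the libraries labelled LFD gave 136, 96 and 111. Their median depth was 35432, 53885 and 38832 UMIs in the HFD libraries and 37110, 37895 and 36916 in the LFD libraries, so HFD replicate 2 was the deepest. Over all 794 barcodes the depth ran from 15476 to 299348 UMIs, with a median of 38850 UMIs and 6164 detected genes. Between 12 and 28 barcode sequences recurred in any pair of libraries, and 0 of these recurrences were between gated barcodes. Among the gated barcodes, 19 had high Scrublet scores, a measure of likeness to simulated doublets.

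The median barcode held 6 UMIs of Ssxb1 and Ssxb2 together and the highest held 48. Both genes were seen in 766 barcodes, Ssxb1 alone in 19 and Ssxb2 alone in 9. Ssxb1 gave 3079 UMIs and Ssxb2 gave 2827, a ratio of 1.09 that lay between 0.968 and 1.29 in single libraries. The threshold cut through a continuous distribution. Of 5676 deep barcodes with few protamine UMIs, 3189 had no Ssxb UMI, 1693 had 1 to 4 and 794 had 5 or more, and the number of barcodes fell at each step from 626 at 1 UMI to 285 at 4, 241 at 5 and 176 at 6. The 241 barcodes just inside the limit held Zpbp at 582 CPM (UMIs of a gene per 1000000 UMIs of the summed barcodes), Tbpl1 at 1002 CPM and Piwil1 at 23.2 CPM. The 285 just outside held the same genes at 562, 966 and 38.9 CPM. With 5 Ssxb UMIs or more and few protamine UMIs, 0 barcodes had under 10000 UMIs and the shallowest kept barcode had 15476, so the count of Ssxb UMIs and not the limit on depth set the lower edge. A further 13 deep barcodes with 5 Ssxb UMIs or more were left out by the protamine limit, 1 of them between 1% and 1.2% protamine UMIs, and 2 kept barcodes lay between 0.8% and 1%.

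**Figure D1:**
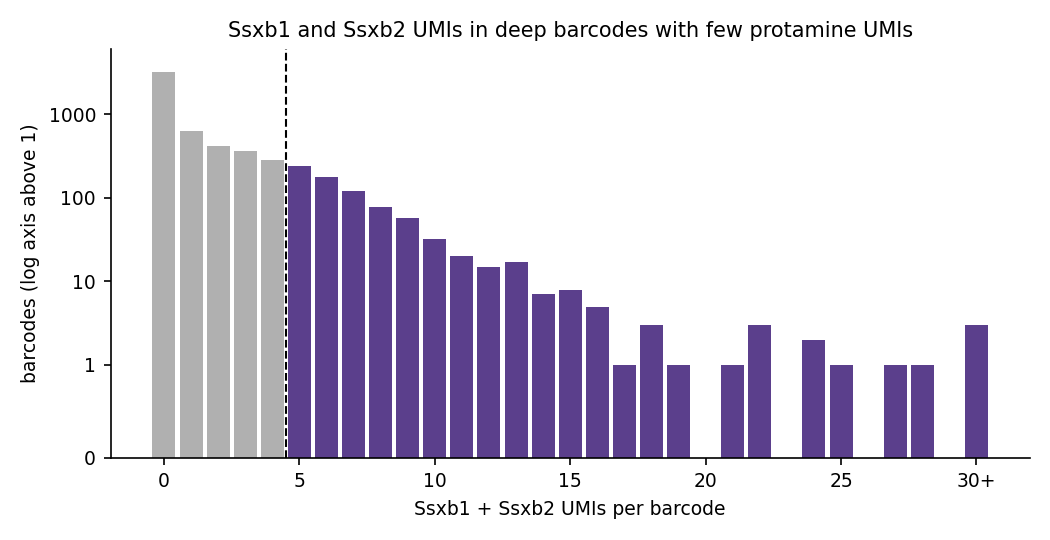
Number of barcodes (log axis above 1, starting at 0) against the sum of their Ssxb1 and Ssxb2 UMIs, for the 5676 barcodes with at least 10000 UMIs and under 1% protamine and transition protein UMIs. Purple bars right of the dashed line are the 794 gated barcodes, and the bars fall across the line from 285 barcodes at 4 UMIs to 241 at 5 with no gap.

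Other groups set by counts served as neighbours, all with 10000 UMIs or more. Pachytene spermatocytes were 1452 barcodes with at least 5 UMIs of Piwil1, fewer than 5 Ssxb UMIs and a protamine share under 1%. Other early barcodes were 3430 with few protamine UMIs that met neither limit, and later spermatids were 2900 with a protamine share of 1% or more. Because counts of these cells chose the groups, their differences are described and carry no test. The Ssxb genes defined the gate, and their levels only describe it. Ssxb1 stood at 88.0, 76.0 and 90.8 CPM in the HFD libraries and at 87.9, 68.2 and 86.7 CPM in the LFD libraries, a mean of 82.9 ± 8.84 (SD, n = 6). Its mean was 1.07 CPM in pachytene spermatocytes, 17.9 CPM in other early barcodes and 2.57 CPM in later spermatids. Ssxb2 stood at 76.5, 78.5 and 83.5 CPM in the HFD libraries and at 67.9, 69.8 and 85.6 CPM in the LFD libraries, against means of 0.831, 15.3 and 2.97 CPM in the same 3 groups. Neither gene overlapped between the gated and any neighbouring group.

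The remaining family members, which the gate did not count, were also detected. Ssxb3 averaged 20.3 ± 3.96 CPM in the gated barcodes and 0.287 CPM in pachytene spermatocytes, and Ssxb6 averaged 18.6 ± 2.44 CPM and 0.395 CPM. Ssxb8 at 8.39 CPM, Ssxa1 at 5.41 CPM, Ssxb5 at 3.23 CPM and Ssxb10 at 2.46 CPM were lower, and Ssxb9 reached 0.367 CPM from 14 UMIs. All 7 were higher than in pachytene spermatocytes in every library. They are near-identical to the gate genes, so these values are not independent of the rule. Within the gate, Ssxb3 was higher where the selecting genes were, at 17.0 CPM in the 417 barcodes with 5 or 6 Ssxb UMIs, 21.0 CPM in the 256 with 7 to 9 and 24.8 CPM in the 121 with 10 or more. The median depth of these bins was higher in the same order, at 35883, 40185 and 63729 UMIs, and its part in the Ssxb3 values was not tested.

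The named cell type was checked on markers outside the Ssx family. Zpbp, an acrosomal protein that binds the zona pellucida, and Tbpl1 (also called TRF2), a TBP-like transcription factor that spermiogenesis depends on, had UMIs in 794 of 794 barcodes. Zpbp stood at 618, 540 and 568 CPM in the HFD libraries and at 595, 601 and 640 CPM in the LFD libraries. Its means elsewhere were 306 CPM in pachytene spermatocytes, 491 CPM in other early barcodes and 205 CPM in later spermatids. Tbpl1 stood at 988, 1048 and 1198 CPM in the HFD libraries and at 1002, 1000 and 1009 CPM in the LFD libraries, with means elsewhere of 751, 714 and 230 CPM. Both genes were thus well above 0 in spermatocytes and were enriched in the gate rather than restricted to it. Piwil1, the PIWI protein of pachytene piRNAs, averaged 21.6 CPM against 657 CPM in pachytene spermatocytes, whose rule used it. It was highest in LFD replicate 2, at 46.8 CPM against 11.9 to 23.3 CPM in the other 5 libraries, and 6 of the 13 gated barcodes with 5 Piwil1 UMIs or more came from that library.

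Shares of barcodes with a UMI were compared after every barcode was thinned to 10000 UMIs, since the groups differed in depth. Ssxb1 was then found in 62.2% of gated barcodes, 1.17% of pachytene spermatocytes and 3.03% of later spermatids, against 98.9%, 4.48% and 7.41% before thinning. Zpbp was found in 99.9% of thinned gated barcodes and 79.8% of thinned pachytene spermatocytes. Acrv1, a protein of the acrosomal matrix, was found in 96.3% and 11.4% respectively, and Piwil1 in 17.5% and 95.7%. Before thinning these shares were 100% and 95.2% for Zpbp, 100% and 32.2% for Acrv1 and 49.6% and 100% for Piwil1. Free RNA gives UMIs in droplets whose cell lacks a transcript. As a reference, 7.38% of 271 macrophage barcodes (median depth 3611 UMIs) and 7.09% of pachytene spermatocytes (median depth 47655 UMIs) held any Ssxb UMI, although the latter group was capped below 5.

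**Figure D2:**
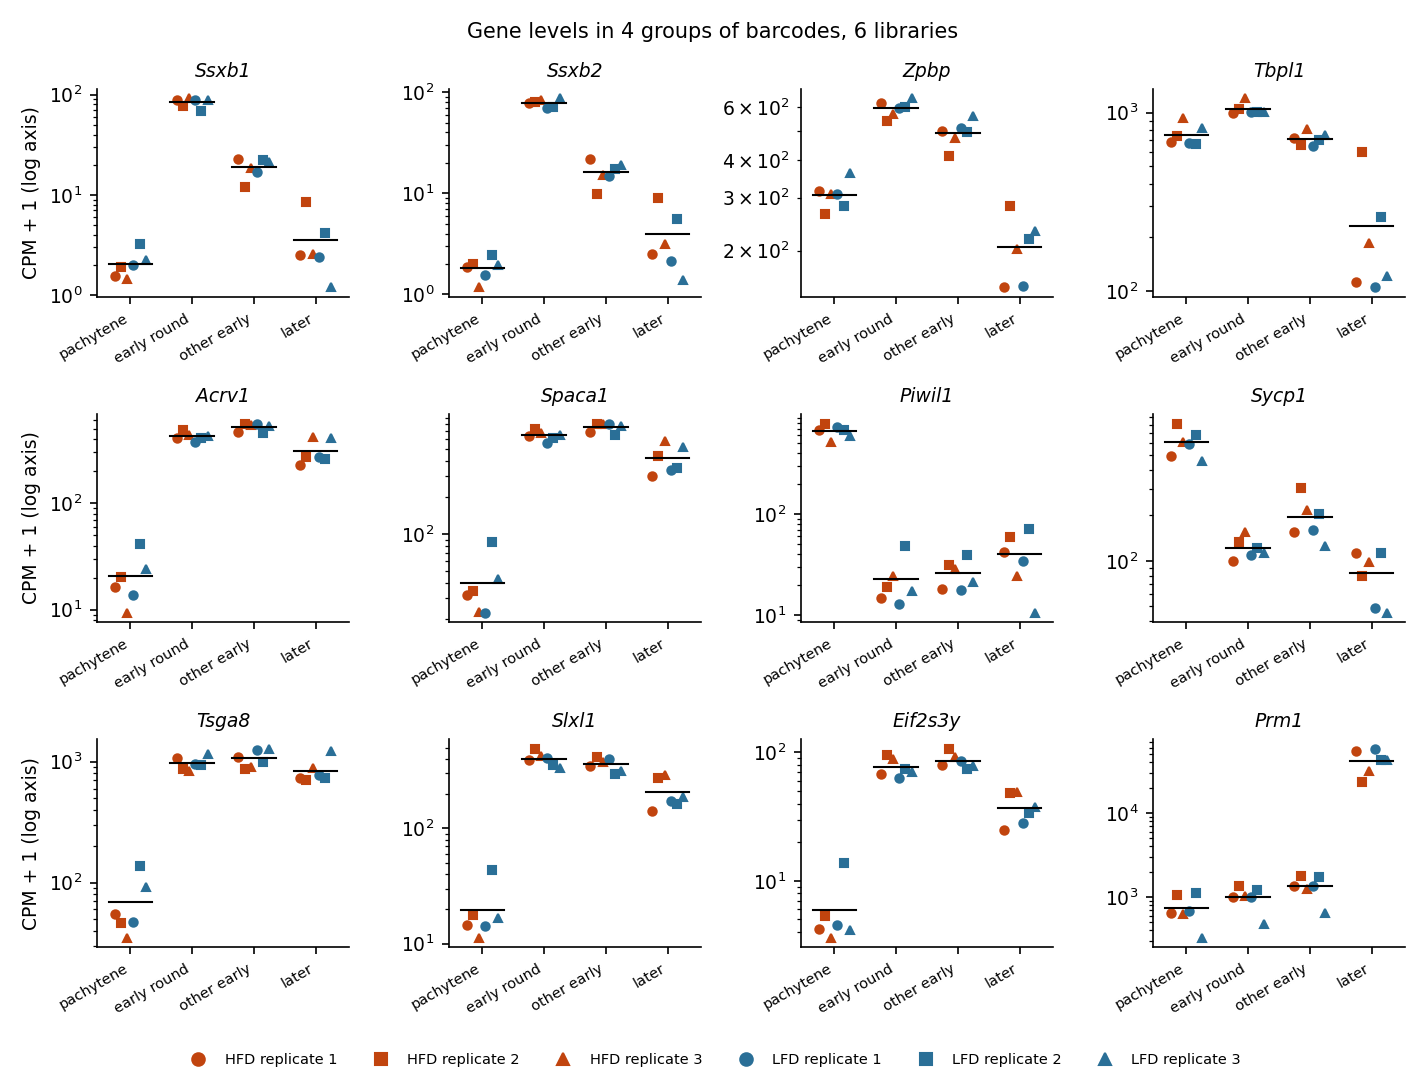
CPM plus 1 (log axis) of 12 genes in 4 groups of barcodes, 1 point per library with the mean as a bar, HFD libraries in red and LFD libraries in blue. Ssxb1 and Ssxb2 stand highest in the gated group, Acrv1, Spaca1, Tsga8, Slxl1 and Eif2s3y are low in pachytene spermatocytes and high from the gated group on, and Prm1 is high in later spermatids, where the rule used it.

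The acrosome programme separated the gated barcodes from spermatocytes. Of 27 acrosome genes, 23 were higher than in pachytene spermatocytes in all 6 libraries and 3 were lower, where over all genes compared 33.1% (4599 of 13882) were higher and 49.1% (6810 of 13882) were lower. Spaca1, an inner acrosomal membrane protein, stood at 636, 720 and 676 CPM in the HFD libraries and at 555, 616 and 642 CPM in the LFD libraries, against a mean of 39.0 CPM in pachytene spermatocytes and 418 CPM in later spermatids. Spaca3, a sperm lysozyme-like protein, averaged 497 ± 54.2 CPM against 29.8 CPM, and Acrv1 averaged 424 ± 39.4 CPM against 19.9 CPM. Acr, the acrosomal protease acrosin, was already at 148 CPM in pachytene spermatocytes and averaged 259 ± 20.7 CPM in the gate. Crisp2, the most abundant member, averaged 2693 CPM in the gate, 2228 CPM in spermatocytes and 2777 CPM in later spermatids. The summed list averaged 9976 CPM, compared with 4565, 10135 and 8193 CPM in pachytene spermatocytes, other early barcodes and later spermatids. Zpbp2 was the member with the largest mean after Crisp2, at 743 ± 45.4 CPM, and stood at 147 CPM in later spermatids.

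Among transcription regulators, known activators of spermatid genes stood above their spermatocyte level. Crem, the cAMP-responsive activator of many spermatid genes, averaged 584 ± 26.6 CPM in the gate, 213 CPM in pachytene spermatocytes and 271 CPM in later spermatids. Sox5, whose short testis form is a spermatid transcription factor, averaged 273 ± 18.2 CPM against 15.6 CPM in spermatocytes, and Creb3l4, a membrane-bound factor of the CREB3 family, averaged 292 ± 32.2 CPM against 27.6 CPM. Tcfl5, a helix-loop-helix factor of spermatocytes and spermatids, was lower than in spermatocytes, at 371 against 575 CPM. In all, 12 of 19 regulators were higher than in pachytene spermatocytes in every library (33.1% of all genes) and 5 were lower (49.1%). Against later spermatids 12 were higher and 4 were lower, where over all genes 41.7% (6082 of 14577) were higher and 25.4% (3699) were lower.

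CREM binds the palindrome TGACGTCA, the cAMP response element, and the RefSeq promoter windows (250 bases before to 50 after the start, GRCm38.p6) were searched for it on both strands. Izumo1, which encodes the sperm protein that binds the egg receptor, carried it 88 bases before its start and is shown as an example chosen after its values were seen. The window covers chr7:45621699-45621738 on the plus strand, with the motif in capitals.
Izumo1: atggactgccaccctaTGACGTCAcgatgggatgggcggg
Izumo1 averaged 93.8 ± 6.59 CPM in the gate and 6.76 CPM in pachytene spermatocytes. The motif occurred in 1.88% of all 27025 promoter windows, in 3.70% (295 of 7980) of those of genes with at least 100 UMIs in the gate, and in 3.66% (25 of 683) of those of genes at least 4-fold higher than in pachytene spermatocytes. The genes higher than in spermatocytes thus held it as often as expressed genes in general. TATAAA, the core of the TATA box, was searched on the plus strand between 40 and 16 bases before the start and occurred in 2.22%, 0.827% and 0.439% of the same 3 sets. The letters of the motifs cannot overlap, and a match of letters is not evidence of binding.

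Genes of mRNA storage differed from genes in general by modest shares. Of 22 genes of messenger ribonucleoprotein particles and the chromatoid body, 14 were lower than in pachytene spermatocytes in all 6 libraries (49.1% of all genes) and 5 were higher (33.1%). Against later spermatids 12 were higher (41.7% of all genes) and 3 were lower (25.4%). Ybx1, a cold-shock domain protein that binds mRNA, averaged 2513 CPM in the gate, 3006 CPM in spermatocytes and 1433 CPM in later spermatids. The germ-cell cold-shock protein Ybx3 took the same order, at 2472, 2806 and 1281 CPM. Pabpc1, the cytoplasmic poly(A)-binding protein, averaged 1898 ± 167 CPM in the gate, 2759 CPM in spermatocytes and 649 CPM in later spermatids.

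Transcripts of meiosis were lower without being absent. Of 19 genes of meiotic prophase, 13 were lower than in pachytene spermatocytes in every library (49.1% of all genes) and 2 were higher (33.1%). Sycp1, the transverse filament of the synaptonemal complex, averaged 121 ± 19.4 CPM against 608 CPM. Syce3, a central element protein of the same complex, went the other way, at 324 ± 49.7 CPM against 172 CPM. Hspa2, the testis HSP70 chaperone, averaged 1121 CPM against 1697 CPM.

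Against spermatocytes, the counts of meiotic division genes lay near the shares of all genes. Of 18, 6 were higher in every library (33.1% of all genes) and 10 were lower (49.1%). Against later spermatids 10 of 17 compared were higher and 0 were lower (41.7% and 25.4% of all genes). Ccnb1, the cyclin of CDK1 at the entry to division, averaged 217 ± 17.9 CPM in the gate, 74.2 CPM in pachytene spermatocytes and 38.6 CPM in later spermatids. The meiotic cyclin Ccna1 averaged 237 ± 35.9, 149 and 41.9 CPM, and Ccnb2 averaged 332 ± 15.1, 213 and 83.5 CPM. The testis alpha-tubulins Tuba3a and Tuba3b were lower than in spermatocytes, at 1321 against 1826 CPM and 1393 against 2146 CPM.

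Flagellar genes had started and genes of nuclear condensation were uneven. Of 21 genes of the flagellum and fibrous sheath, 19 were higher than in pachytene spermatocytes in every library (33.1% of all genes) and 2 were lower (49.1%). Against later spermatids 10 were higher (41.7% of all genes) and 10 were lower (25.4%). Ropn1l, which binds the scaffold proteins of the fibrous sheath, averaged 4359 ± 149 CPM in the gate, 3246 CPM in spermatocytes and 2994 CPM in later spermatids. Smcp, a protein of the sperm mitochondrial capsule, averaged 1199 ± 180, 163 and 5708 CPM, and Akap4, the main scaffold of the fibrous sheath, 175 ± 23.3, 27.9 and 917 CPM. Of 14 compared genes of nuclear condensation, 4 of which the limits used, 9 were higher than in spermatocytes in every library and 3 were lower. The shares over all genes were 33.1% and 49.1%. Among those the limits did not use, Tsga8, a spermatid nuclear protein, averaged 970 ± 122 CPM in the gate, 68.0 CPM in spermatocytes and 842 CPM in later spermatids, and the spermatid linker histone Hils1 averaged 704 ± 68.8, 63.7 and 1955 CPM.

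Ldhc, the testis lactate dehydrogenase, was the most abundant mRNA of the gated barcodes. It stood at 8104, 8604 and 8652 CPM in the HFD libraries and at 8479, 8262 and 8484 CPM in the LFD libraries, and its spread over single barcodes was narrow, from 6966 CPM at the 5th percentile to 9913 CPM at the 95th. Meig1, needed for assembly of the sperm tail, followed at 6727 CPM, then the polyubiquitin gene Ubb at 5038 CPM, Fabp9, a fatty-acid-binding protein of the sperm head, at 4560 CPM, and Ropn1l. The other 15 of the top 20 were Gstm5, Lyar, Gkap1, Rbakdn, Morf4l1, Gm5617, Hsp90aa1, Pebp1, Pgp, Crisp2, Fam229b, Ybx1, Ybx3, Serf1 and Asrgl1, from 4009 down to 2390 CPM. Gkap1 and Lyar distinguished the gate from later spermatids, at 3497 against 789 CPM and 3637 against 765 CPM, and both were already abundant in spermatocytes at 2794 and 4198 CPM. Pgk2, the testis phosphoglycerate kinase, averaged 500 ± 64.3 CPM against 163 CPM in pachytene spermatocytes and 785 CPM in later spermatids, and 11 of 20 testis isozymes were higher than in spermatocytes while 7 were lower (33.1% and 49.1% of all genes). Of 16 somatic isozymes, 2 were higher and 6 were lower, and Ldha averaged 784 against 1115 CPM.

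Mitochondrial transcripts were scarce. All 13 mitochondrially encoded mRNAs were lower than in pachytene spermatocytes in every library. Together they made up 0.658% of gated UMIs (0.567% to 0.758% over libraries), 2.64% in pachytene spermatocytes, 1.37% in other early barcodes and 0.474% in later spermatids. Single barcodes varied widely, from 932 CPM of these mRNAs at the 5th percentile to 14302 CPM at the 95th, with a median of 5988 CPM. The most abundant, mt-Co3, a core subunit of cytochrome c oxidase, averaged 1526 CPM against 6363 CPM in spermatocytes. Of 19 nuclear genes of mtDNA transcription, 12 were lower than in spermatocytes in every library and 6 were higher. Of 24 genes of fatty acid metabolism, 14 were lower and 4 were higher, or 12 and 4 of the 21 with enough UMIs to be compared. The shares over all genes were 49.1% lower and 33.1% higher, and neither list stood far from them. Values of single members ran both ways, with Hadhb, the thiolase subunit of the trifunctional protein, at 70.3 against 171 CPM and Acsl1, a long-chain acyl-CoA synthetase, at 101 against 11.2 CPM.

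Transcripts of the sex chromosomes took a larger share in the gated barcodes than in spermatocytes. Without Ssxb1 and Ssxb2, X-linked genes held 0.770% of gated UMIs (0.710% to 0.878% over libraries), compared with 0.0842% in pachytene spermatocytes, 1.07% in other early barcodes and 1.40% in later spermatids. Y-linked genes held 0.0467%, 0.00322%, 0.0472% and 0.0272% in the same groups. In pachytene spermatocytes both shares were highest in LFD replicate 2, at 0.200% and 0.00687%, and the range of the other 5 libraries was 0.0453% to 0.0694% for the X. The number of genes was counted among those with at least 100 UMIs in the pachytene spermatocytes themselves, so that none entered only through the gate. Of 152 such X-linked genes, 94 (61.8%) were at least 2-fold higher in the gate and higher in every library, against 11.9% of 12088 autosomal genes (1442). At 4-fold or more these shares were 39.5% and 6.13%. Of the 4 Y-linked genes with enough UMIs, 3 were at least 2-fold higher. The Y-linked share also counts Gm47283 by its annotation (chrY:90784738-90816464). Gm47283 averaged 23 CPM in the gate and 10.2 CPM in pachytene spermatocytes, where Eif2s3y averaged 4.94 CPM.

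Listed X-linked genes with spermatid roles were low in spermatocytes and went both ways against later spermatids. Slxl1, a multicopy member of the SYCP3-like family, stood at 389, 491 and 427 CPM in the HFD libraries and at 411, 357 and 335 CPM in the LFD libraries, with means of 18.7 CPM in pachytene spermatocytes and 204 CPM in later spermatids. Of 31 listed X-linked genes, 20 were higher than in spermatocytes in every library (33.1% of all genes) and 0 were lower in every library (49.1%). In the gate 2 had no UMI. Against later spermatids 8 of 24 compared were higher (41.7% of all genes) and 12 were lower (25.4%). The latter included Cypt1, a cysteine-rich perinuclear theca protein, at 160 against 723 CPM. Of 15 listed Y-linked genes, 9 were higher than in spermatocytes in every library (33.1% of all genes), 0 were lower (49.1%) and 4 had no UMI in the gate. Eif2s3y, a translation initiation factor subunit, stood at 67.1, 94.0 and 87.4 CPM in the HFD libraries and at 62.1, 73.8 and 69.4 CPM in the LFD libraries, against means of 4.94 CPM in pachytene spermatocytes and 36.0 CPM in later spermatids. Sly, the Y-linked relative of Slxl1, averaged 14.7 CPM against 0.465 CPM, and the zinc finger gene Zfy1 averaged 6.63 ± 1.05 CPM against 0.490 CPM.

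**Figure D3:**
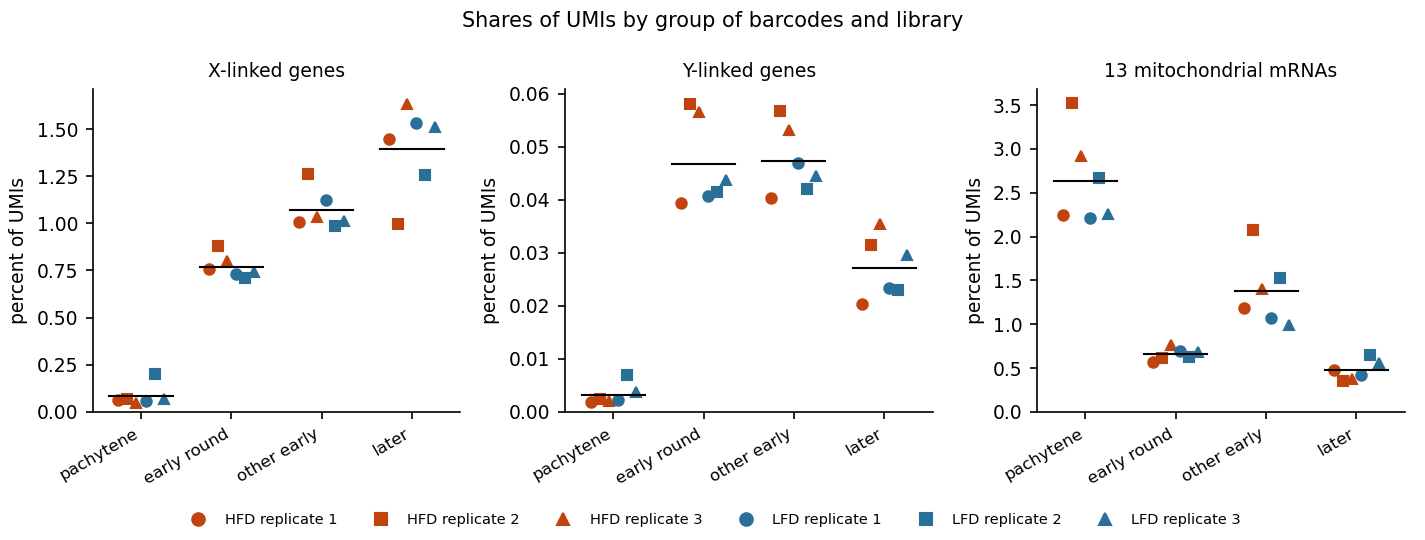
Share of UMIs, in percent, from X-linked genes (without Ssxb1 and Ssxb2), Y-linked genes and 13 mitochondrially encoded mRNAs, by group of barcodes, 1 point per library with the mean as a bar. The X-linked share averages 0.0842% in pachytene spermatocytes and 0.770% in the gated group, and the mitochondrial share 2.64% and 0.658%.

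Each haploid nucleus carries an X or a Y, while spermatids of a clone are joined by cytoplasmic bridges through which transcripts pass. Every one of the 794 barcodes held UMIs of both chromosomes, with a median of 304.5 X-linked and 19 Y-linked UMIs and lows of 84 and 1. The Y-linked part of the X- and Y-linked UMIs was 5.69% when pooled, its median over barcodes was 5.64%, and 90% of barcodes lay between 3.00% and 8.86%. The full range was 0.128% to 13.5%. Most barcodes lay in a single cloud, with no separate groups low and high in the Y-linked part. The gate itself asked for UMIs of Ssxb1 and Ssxb2, which are X-linked. Barcodes with few X-linked transcripts may therefore have been left out, so the cloud cannot show whether such a group exists. The variance of the Y-linked part was 1.92 times its binomial value over all barcodes and 1.21 to 2.40 times in single libraries. The lowest part was that of a barcode of HFD replicate 3 with 783 X-linked and 1 Y-linked UMIs. The Y-linked UMIs include those of Gm47283, which its annotation places on the Y chromosome. Free RNA was not separated from a barcode's own.

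**Figure D4:**
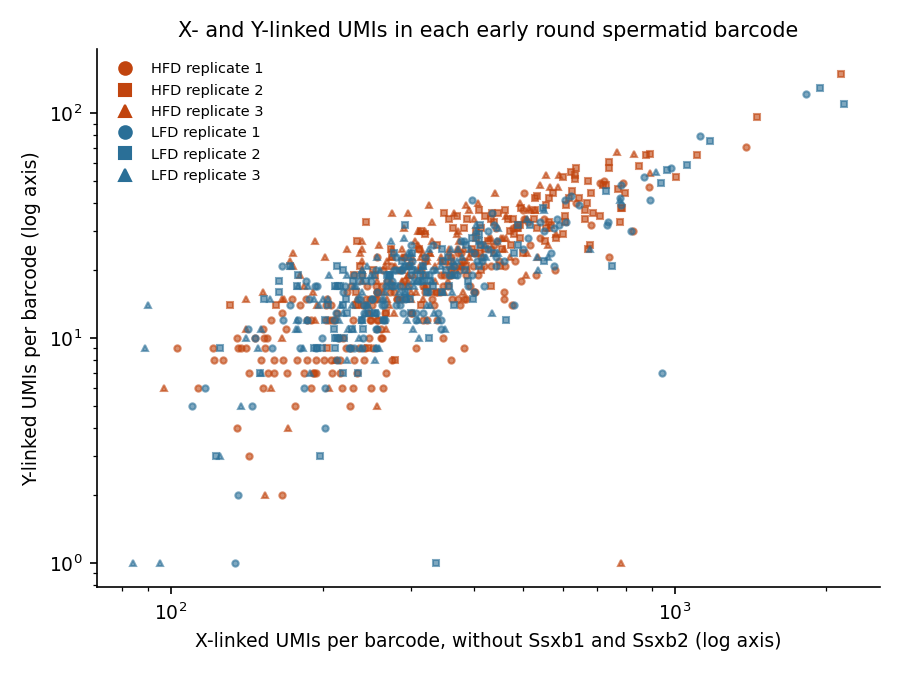
Y-linked against X-linked UMIs of each of the 794 gated barcodes (both log axes, Ssxb1 and Ssxb2 left out), HFD libraries in red and LFD libraries in blue, with a marker shape per replicate. Most points form 1 cloud around the pooled Y-linked part of 5.69%, and 0 barcodes lack X-linked or Y-linked UMIs.

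Genes were next ranked by the fold of their mean level over pachytene spermatocytes and over later spermatids. Only genes with at least 100 UMIs that were higher in all 6 libraries were ranked, and 5 CPM were added to both levels. The fold is thus smaller than the ratio of the means for low genes. Over pachytene spermatocytes, 912 of 13291 genes were at least 4-fold higher and 572 were at least 4-fold lower. The highest fold was that of 4921504E06Rik, an uncharacterised gene on chromosome 2, at 310, 379 and 380 CPM in the HFD libraries and 315, 289 and 310 CPM in the LFD libraries against a mean of 6.52 CPM, a fold of 29.1. BC061237 (24.6-fold), Fam24a (24.3-fold, 745 against 25.8 CPM) and Spag6, a protein of the central pair of the axoneme (22.8-fold, 483 against 16.4 CPM), came next. Prr22, 1700007K13Rik, Armh2, 4930579F01Rik, 1700016D06Rik and 1700001F09Rik completed the top 10 at 20.3- to 22.2-fold.

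Over later spermatids, 331 of 13714 genes were at least 4-fold higher and 766 were at least 4-fold lower. The count of higher genes was 519 without HFD replicate 2, whose later spermatids had the lowest protamine and transition protein share (6.35% of UMIs, against 10.0% to 15.8% in the other 5 libraries). Ssxb1 and Ssxb2, which the gate chose, ranked at 11.6- and 10.3-fold. The other leading genes were Gm6588 (10.7-fold, 105 against 5.29 CPM), Lrriq1 (9.20-fold, 216 against 19.0 CPM), Smco4 (9.19-fold, 228 against 20.3 CPM), Gm3453, Iqca, Gm5458, 4921504E06Rik and Gm6370. Lrriq1 differed from the rest in being already at 106 CPM in spermatocytes.

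A set of 91 genes was at least 4-fold higher than in both pachytene spermatocytes and later spermatids, and 619 were at least 2-fold higher. The other early barcodes did not enter this count, so the 91 are not shown to be particular to the gate. Gm6588 and Smco4 were 1.97- and 1.37-fold higher than in other early barcodes, and Tex15 was lower, at 155 against 184 CPM. The 91 were 0.873% of the 10427 genes with at least 100 UMIs. Chromosome 14 held 18 of them, 4.09% of its 440 such genes, and 16 of the 18 were predicted genes with Gm names. Of these, 9 (Gm2888, Gm5795, Gm3149, Gm3453, Gm3476, Gm21103, Gm3460, Gm8362 and Gm5797) lay between positions 3030002 and 7332395 of chromosome 14 (GRCm38), a span with 20 genes of at least 100 UMIs, and averaged at most 118 CPM. A run of 3 (Gm6309, Gm6370 and 4930449I24Rik) lay between 146167976 and 146505183 on chromosome 5, which held 10 of the 91 (1.34% of its genes). The X chromosome held 7 (2.70%), the 2 gate genes among them. The clusters were noticed after the values were seen, and how far reads are shared between copies of these predicted genes was not tested.

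Markers of other testis cells were close to 0 in the gate. Summed over each list, 13 Sertoli genes gave 7.99 to 20.4 CPM per library, 7 Leydig genes 0.869 to 1.83 CPM, 8 peritubular, stromal and endothelial genes 2.35 to 18.0 CPM, 10 macrophage genes 6.91 to 38.2 CPM and 4 erythroid genes 0 to 0.294 CPM. Insl3, which defines Leydig cells, averaged 0.038 CPM. The highest peritubular, macrophage and dissociation-stress sums were those of LFD replicate 2, and 1 barcode of 52949 UMIs with a high Scrublet score held 66 of its 90 peritubular, 135 of its 191 macrophage and 166 of its 243 stress UMIs. Of 12 spermatogonial genes, Dmrtb1, a transcription factor of the mitosis-to-meiosis switch, was abundant at 986 ± 98.8 CPM against 870 CPM in spermatocytes, and the next, Uchl1, averaged 4.92 CPM.

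The study asked whether a short high-fat diet alters developing germ cells, and the diets were compared with the library as the replicate. Gated barcodes were 1.99%, 1.42% and 1.86% of the barcodes of the HFD libraries and 2.05%, 0.865% and 1.93% of the LFD libraries. The groups overlapped, and their means of 1.76% ± 0.303 and 1.62% ± 0.653 (SD, n = 3 each) differed by 0.142 percentage points (exact permutation test, two-sided, p = 0.9, where 0.1 is the smallest p that 3 against 3 can give). LFD replicate 2 was the lowest, and without it the difference turned to -0.233. The gate counts UMIs, so its yield moves with depth, and at exactly 5 Ssxb UMIs stood 16.5% of the gated barcodes of HFD replicate 2 and 28.3% to 36.0% of those of the other libraries.

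Of the 3 shares of UMIs, only the X-linked one did not overlap between the diets. It was 0.760%, 0.878% and 0.798% in the HFD libraries and 0.730%, 0.710% and 0.741% in the LFD libraries, with means of 0.812% ± 0.0602 and 0.727% ± 0.0157 (n = 3 each). The difference of 0.0846 percentage points gave the smallest p possible (exact permutation, p = 0.1, adjusted over 4 comparisons 0.4). It was 0.0298 between the replicate 1 libraries and 0.112 among the other 4. That split was taken from haemoglobin counts seen earlier in these data and is named as a batch by no label, and in the gated barcodes the erythroid sum was 0 CPM in both replicate 1 libraries and also in LFD replicate 2. The Y-linked share averaged 0.0513% ± 0.0103 in the HFD libraries and 0.0420% ± 0.00156 in the LFD libraries, a difference of 0.00933 (exact permutation, n = 3 each, p = 0.4, adjusted 0.8) that was -0.00131 between the replicate 1 libraries and 0.0147 among the other 4. The mitochondrial share averaged 0.648% ± 0.0985 and 0.669% ± 0.0359, a difference of -0.0207 (exact permutation, n = 3 each, p = 0.7, adjusted 0.9) that was -0.131 and 0.0345 within the same sets. For the share of barcodes the adjusted p was 0.9, and the difference was -0.0591 and 0.242 within those sets.

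Across genes, 0 of 11889 passed an adjusted p of 0.05 in edgeR's quasi-likelihood test on UMIs summed per library, a background of 0%, and DESeq2 also called 0. At an unadjusted p under 0.05 edgeR had 995 genes and DESeq2 596, and the smallest adjusted p was 0.591 with edgeR. The median standard error of a log2 fold change was 0.18, which limits what 3 libraries per diet could detect. Without HFD replicate 1, edgeR called 993 of 11966 genes (8.3%), 263 higher and 730 lower in the HFD libraries. HFD replicates 2 and 3 then stand against the 3 LFD libraries, and these sets also differed in base composition. The rank correlation over genes of GC content with how far a library lay from the 6-library mean was -0.45 and -0.394 in HFD replicates 2 and 3 and lay between 0.251 and 0.315 in the other 4 libraries, HFD replicate 1 included. With each library's GC and length trends also taken out, 223 of 11966 (1.86%) remained past the threshold, 66 higher and 157 lower.

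The 5 genes with the smallest p are given as values. Smarca4, the ATPase of BAF chromatin remodellers, stood at 25.8, 19.7 and 26.2 CPM in the HFD libraries and at 36.7, 37.0 and 38.6 CPM in the LFD libraries, a log2 fold change of -0.66 ± 0.15 (SE; edgeR adjusted p = 0.591). Fyb, an adaptor protein best known from T cells, stood at 280, 358 and 330 CPM against 233, 244 and 237 CPM, a log2 fold change of 0.43 ± 0.10. The groups of both genes lay apart without overlap. So did those of Tmem117 (2.98, 4.85 and 4.42 against 1.62, 1.00 and 1.60 CPM), Gm44071 (17.4, 22.8 and 19.6 against 12.2, 12.6 and 11.9 CPM) and Sbsn (1.19 to 1.91 against 3.88 to 4.26 CPM), for which edgeR's adjusted p was 0.591 as well. Among all 11889 genes, 6.78% (806) were higher without overlap in the HFD libraries and 6.22% (740) were lower.

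In the fixed lists the diet test called 0 members of any list. Of 27 acrosome genes, 17 had a positive log2 fold change, with a median of 0.10 where the median of all genes was -0.00154. In the HFD libraries 5 were higher without overlap (6.78% of all genes) and 0 were lower without overlap (6.22%). The member with the smallest p was Capza3, a testis actin-capping subunit, at 221, 298 and 272 CPM against 187, 216 and 219 CPM (log2 fold change 0.33 ± 0.11, edgeR adjusted p = 0.591). In the flagellum list the median was -0.04, and Fscb, a fibrous sheath protein, stood at 47.4, 71.1 and 61.5 CPM against 40.8, 44.6 and 42.9 CPM (0.47 ± 0.14, edgeR adjusted p = 0.591). All 8 tested members of the Y-linked list had positive values with a median of 0.25, and 18 of 20 of the X-linked list did with a median of 0.17. Gm47283, which is annotated on the Y chromosome and lies outside that list, went the other way. Its mean was 13.1 ± 7.64 CPM in the HFD and 32.9 ± 12.2 CPM in the LFD libraries (SD, n = 3 each). For the mitochondrial mRNAs, 12 of 13 were negative with a median of -0.11. Their sums overlapped between the diets, at 5669, 6196 and 7577 CPM in the HFD libraries and 6980, 6287 and 6796 CPM in the LFD libraries.

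The meiotic division list had the lowest median among the germ-cell lists with at least 10 tested members, -0.20 over 17 genes. Its sum was 4784, 3153 and 3612 CPM in the HFD libraries and 4652, 4689 and 4888 CPM in the LFD libraries, so HFD replicates 2 and 3 were low and HFD replicate 1 lay with the LFD libraries. Tuba3a showed the same order, at 1506, 903 and 1010 CPM against 1428, 1492 and 1584 CPM (-0.40 ± 0.16, edgeR adjusted p = 0.591). Without HFD replicate 1, 6 members (Aurka, Ccna1, Cdc20, Plk1, Tuba3a and Tuba3b) were called lower in the HFD libraries by edgeR, where 6.1% of all genes (730) were. The same fit called 8 of 21 flagellum genes, 3 higher and 5 lower, and 7 of 27 acrosome genes, 4 higher and 3 lower. Over all genes it called 8.3% (993 of 11966), 263 higher and 730 lower. Of the meiotic division genes, Tuba3a and Tuba3b were called lower with the GC and length trends also taken out. Over all genes that fit called 1.86% (223 of 11966), 66 higher and 157 lower. The same 2 libraries carried the different GC trend, and its part in the list's values was not tested beyond this.

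**Figure D5:**
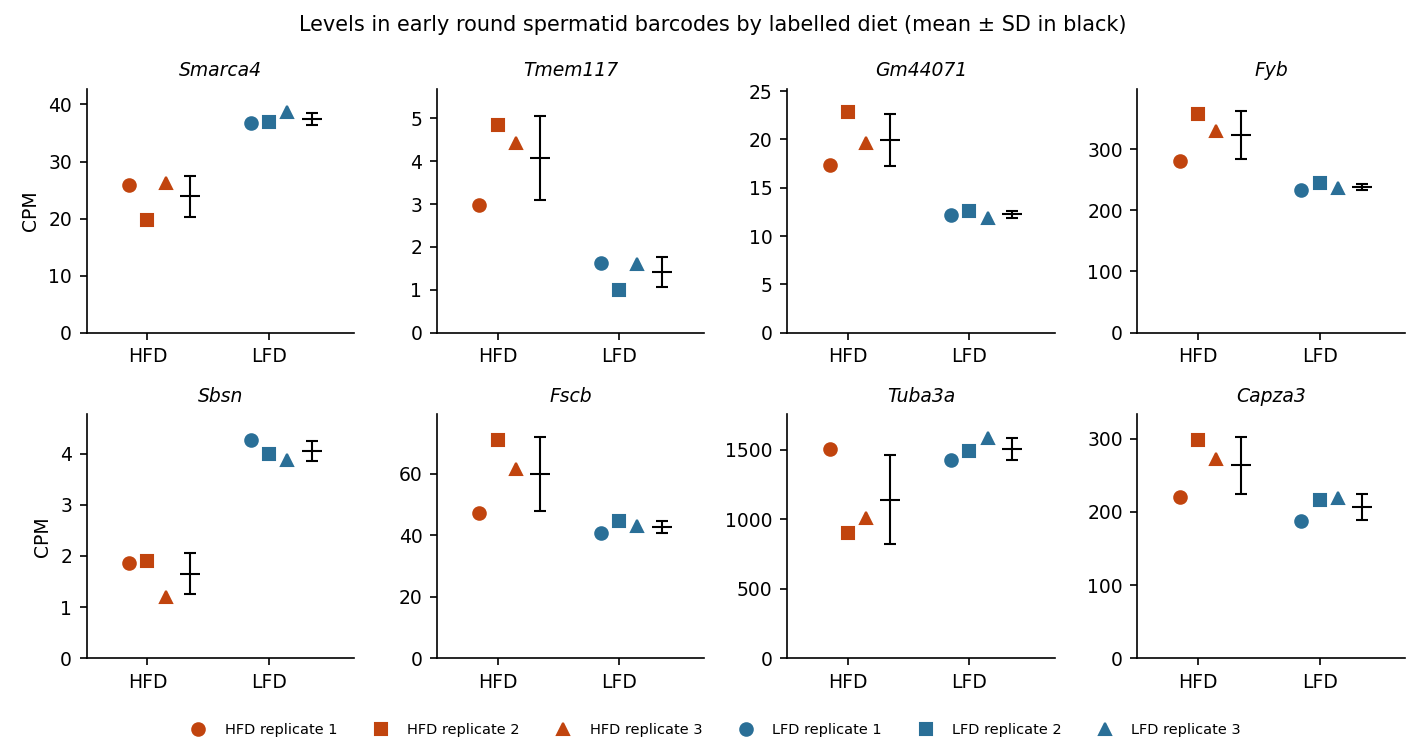
CPM in the gated barcodes by labelled diet for 8 genes, 1 point per library, with mean and SD in black (n = 3 per diet, axes from 0). Smarca4 and Sbsn stand lower and Tmem117, Gm44071, Fyb, Fscb and Capza3 higher in the HFD libraries without overlap, and Tuba3a overlaps because HFD replicate 1, at 1506 CPM, lies among the LFD libraries.

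Whether the diet difference depended on the stage was tested against later spermatids of the same libraries. The diet by stage term of edgeR passed the threshold for 0 of 14315 genes (0%), with 138 at an unadjusted p under 0.05 and a smallest adjusted p of 0.992.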

How the data were processed

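Testes were dissociated and run on the 10x Genomics 3′ platform, and the authors aligned the reads to mm10 and deposited UMI counts per gene and barcode after Cell Ranger 6.0.1 cell calling (per the labels and the submitters' processing notes). The deposited counts are raw and cover 32285 gene IDs in 6 libraries of 5753 to 11095 barcodes and 39196921 to 95845514 UMIs. The gated barcodes hold 4383362 to 8056805 UMIs per library. Each UMI counts 1 molecule at its 3′ end, so CPM was not divided by transcript length. The labels name another kit version than the study's methods. Strand-aware counting was not stated in the sources used here. Scaled and integrated values of the study were not used.

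Barcodes were gated by the stated limits and their UMIs summed per library. Diets were compared with edgeR 4.0.16 (glmQLFit and glmQLFTest, TMM, filterByExpr, Benjamini-Hochberg over all genes tested) in R 4.3.3, with DESeq2 1.42.0 as an alternative, and shares with the exact permutation test over libraries. The scripts were tested on simulated data. Doublets were scored with Scrublet in scanpy 1.11.5 and kept, and transcripts were aligned with Biopython 1.88. Chromosomes and GC content came from GENCODE vM21 (GRCm38.p6), in which 50 gene IDs had no entry and stayed out of the X and Y shares. Percent called beside a count gives that count over all genes tested. Counts of listed genes against pachytene spermatocytes took every member, whatever its UMIs, except where genes are said to be compared. The shares of all genes beside them took only genes compared.

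The genes named are the 20 most abundant, the 10 with the highest fold over pachytene spermatocytes and the 10 over later spermatids. Every Ssx gene and the 5 genes with the smallest diet p are also named. Of each list, the 2 most abundant and the 1 with the smallest diet p are named. Further list members, such as Spaca3, Ccnb1, Sox5, Izumo1, Smcp and Sly, were named after their values were seen. The limits, the 24 lists and the members were chosen with earlier results of these data known. Alternatives varied the limits, filter, scaling, test, replicate block, batch term, base composition and libraries.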

Additional observations from a re-analysis of the deposited data

How the results depend on the processing

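With 3 libraries per diet, the exact test of a share cannot fall below p = 0.1, so the shares say little beyond their direction. The lower and the higher UMI minimum selected the same 794 barcodes and the replicate block keeps the difference of means, so these 3 settings could not change a value, and they are left out of the counts below. The X-linked difference kept its direction under the 14 others (0.0517 to 0.111 percentage points when each library was left out in turn). The Y-linked difference did so under 14 of 15 (0.00597 to 0.0153 when each library was left out), and it was -0.00131 within the replicate 1 libraries. The difference in the share of barcodes was -0.0472 with a minimum of 3 Ssxb UMIs, -0.933 with deep barcodes as the denominator and -0.0591 within the replicate 1 libraries, and it ran from -0.233 to 0.360 when each library was left out. The mitochondrial difference turned positive with a minimum of 3 (0.0033) or 10 Ssxb UMIs (0.0204), without high Scrublet scores (0.0181), as a mean over barcodes (0.00423) and within the other 4 libraries (0.0345), and it ran from -0.0755 to 0.0199 when each library was left out, turning without HFD replicate 1. The cause of these turns was not tested.

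Genes called between the diets numbered 0 to 993 when each library was left out, the latter without HFD replicate 1, and 223 with GC and length trends also taken out, a setting chosen after seeing the data. Without a filter on low counts 26 of 22423 genes were called, 3 higher and 23 lower. They were led by Cd74, Dcn and Fos at 19.8, 12.2 and 11.6 CPM in LFD replicate 2 and at most 0.51 CPM elsewhere. Other calls lay apart between the diets at higher levels. Among them were Gm47283 (edgeR adjusted p = 1.48e-10), Them6 (means of 45.4 CPM in the HFD and 68.7 CPM in the LFD libraries) and Spam1 (171 and 119 CPM). The diet by stage term called 1 gene, Dcn, without a filter and 0 when each library was left out. Gene counts over the neighbours ran from 876 to 989 (pachytene spermatocytes), 275 to 519 (later spermatids) and 81 to 98 (both) when each library was left out, and with an offset of 1 CPM they were 1720, 754 and 254, since a smaller offset admits lower genes.

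The deviations of same-numbered libraries of the diets correlated only weakly over genes (r = 0.034, 0.0193 and 0.0172). Pairs with different numbers ran from -0.0328 to 0.00928, below the same-numbered pairs. Whether the numbers mark a pairing was not tested. With the replicate block 1 gene was called, Gm47283, which is annotated on the Y chromosome. It had a mean of 13.1 ± 7.64 CPM in the HFD and 32.9 ± 12.2 CPM in the LFD libraries (SD, edgeR adjusted p = 0.00018). It was also called with a term for the replicate 1 libraries (1 gene, edgeR adjusted p = 0.0182). With the block and the GC and length trends taken out 0 genes were called (smallest adjusted p 0.0711). In the paired sign-flip test, whose smallest p is 0.25, the X-linked share gave 0.25 and the share of barcodes, mitochondrial share and Y-linked share 1, 0.75 and 0.5 (exact tests). Left out on its own, Gm47283 moved the Y-linked difference to 0.0113.

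Of the 27 genes named in the diet comparison, H2-Ab1 and Junb, which were near 0 in effect or level, changed sign. The log2 fold change of H2-Ab1, -0.04, was 0.04 and 0.08 with a minimum of 3 and 10 Ssxb UMIs, 0.23 without high Scrublet scores, 0.02 with equal numbers of barcodes, 0.10 with the GC and length trends taken out, 0.19 with HFD replicate 1 left out as well and 0.12 with the replicate block and those trends, and it ran from -0.26 to 0.28 when each library was left out, positive without HFD replicate 2 or LFD replicate 2. That of Junb, -0.68, was 0.31 without high Scrublet scores and ran from -1.09 to 0.47 when each library was left out, positive without LFD replicate 2.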
